A study of Mus musculus with 2 samples.

Results

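Insulin-like growth factor (IGF) signalling was followed through 7 genes in single-cell RNA-seq of mouse lung stromal and epithelial cells. The genes were taken by symbol from the gene list of the deposited files, and all 7 were found among the 32285 genes listed. They are the ligands *Igf1* and *Igf2*, the receptors *Igf1r*, *Insr* and *Igf2r*, and the adaptors *Irs1* and *Irs2*. IGF1 and IGF2 are secreted growth factors that bind the receptor tyrosine kinase IGF1R, and insulin binds mainly the related kinase INSR. The active receptors phosphorylate IRS1 and IRS2, docking proteins that recruit PI3K and so feed the AKT arm, while IGF2R carries IGF2 to the lysosome and has no kinase of its own. In the growing lung the mesenchyme is a known source of both ligands, and the pathway is known for its part in alveolar growth.

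The libraries came from 1 control and 1 *Gli1 HHIPCKO* mouse at postnatal day 14 (P14). Both mice carried *Gli1 creERT/+* and *Hhip flox/flox*, and the *Gli1 HHIPCKO* mouse was given tamoxifen after birth where the control mouse was given oil. Tamoxifen activates a Cre recombinase expressed from the *Gli1* locus, so *Hhip*, an inhibitor of Hedgehog ligands, is deleted in cells of the *Gli1* lineage, which are mainly mesenchymal. Stromal cells sorted as negative for CD45, CD31 and CD326 were mixed with CD326-positive epithelial cells at 3:1, so the balance of stroma and epithelium was set by the sort. The control library holds 43291709 unique molecular identifiers (UMIs) in 10999 cells, with a median of 3531 UMIs per cell. For *Gli1 HHIPCKO* these numbers are 52338969, 12350 and 3720. After the filters on genes and mitochondrial UMIs, 10917 control and 12115 *Gli1 HHIPCKO* cells were kept. The libraries shared 193 cell barcodes, of which 185 were kept in both.

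Each group is 1 mouse, so there are no replicates and differences were not tested. Levels are UMIs summed over the cells of a class, as CPM, a count scaled by the total UMIs of that class, with a 95% exact Poisson interval. Shares of cells with a UMI carry a 95% exact binomial interval, and a log2 ratio of *Gli1 HHIPCKO* over control carries a 95% exact conditional binomial interval. All of these cover counting error only. A gene was measured in a class if it had at least 50 UMIs over both libraries, and it is called higher or lower if it passed 2-fold. *Xist*, which is made from the inactive X chromosome, had 0 UMIs in control myofibroblast-like cells, a limit of 0.363 CPM at 3 counts, and stood at 316 CPM in the same class of the *Gli1 HHIPCKO* library. The sex of the mice and the deletion cannot be told apart. *Hhip* fell from 1125 CPM to 297 CPM in myofibroblast-like cells (log2 ratio −1.92, interval −1.99 to −1.86). It was also past 2-fold lower in DMF-like, peribronchial-like, alveolar fibroblast-like, pericyte-like, vascular smooth muscle-like, mesothelial-like and lymphocyte-like cells. The same held for AT2-like cells, at 3.07 and 1.44 CPM, and ciliated-like cells, at 81.7 and 16.4 CPM. Red cell-like cells, which should not express *Hhip*, held 138 and 48.2 CPM over all their UMIs, also a fall past 2-fold. Only 37.0% and 51.1% of those UMIs were not haemoglobin, so the values would be higher over these alone. The control value is above that of pericyte-like cells, at 120 CPM. The part of free RNA in the *Hhip* ratios of the other classes was not tested. In ALMF-like cells *Hhip* was at 222 and 126 CPM, and in adventitial fibroblast-like cells at 101 and 71.5 CPM. It did not pass 2-fold in these classes.

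Cells were clustered with the members and related genes held out, and clusters were called "X-like" from marker lists. The classes are alveolar myofibroblast (ALMF), ductal myofibroblast (DMF), peribronchial, adventitial fibroblast, alveolar fibroblast, pericyte, vascular smooth muscle, mesothelial, alveolar type 2 (AT2), ciliated and others. Clusters without a clear name were kept out of all classes, and these held 25.5% of the cells in control and 19.3% in *Gli1 HHIPCKO*. Doublets were not removed, and leaving out the cells ranked as doublets was run as an alternative. ALMF-like cells are 1 cluster with 979 control and 224 *Gli1 HHIPCKO* cells. DMF-like cells come from a cluster of 1247 control and 37 *Gli1 HHIPCKO* cells led by *Efnb2* and *Enpp2*, and a cluster of 20 and 962 cells led by *Ace* and *Lgr6*. A cluster of 19 and 810 cells led by *Lnx1* and *Entpd1* lay between ALMF and DMF, as did a cluster of 493 and 618 cells led by *Socs3*, *Egr1* and *Junb*. Library and cell state are therefore not separated in most myofibroblast clusters. For this reason ALMF-like, DMF-like and in-between clusters were also summed as myofibroblast-like cells (2758 from control, 2651 from *Gli1 HHIPCKO*), a choice made after seeing the data. In each class compared, every marker was higher than in the other named cells of the same library, except for 1 of 12 in control adventitial fibroblast-like cells and 3 of 10 in vascular smooth muscle-like cells.

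In myofibroblast-like cells, 2 of the 7 genes were higher in *Gli1 HHIPCKO*, *Igf1* and *Igf2*, and 0 were lower. Of all genes measured there, 3.28% were higher and 1.94% lower. Both ligands passed 2-fold, *Igf2* at the low levels of 4.60 and 22.1 CPM. The other members did not, with *Igf1r* closest at a log2 ratio of 0.96. In DMF-like cells the same 2 of 7 were higher, against 2.52% of genes higher and 2.38% lower. In ALMF-like cells 1 of 6 measured members was higher, *Igf1*, against 1.71% of genes higher and 2.55% lower. The peribronchial-like class is led by *Cnn1*, *Actc1* and *Actg2*, contractile genes of airway smooth muscle, and airway smooth muscle cells and peribronchial fibroblasts are not separated in it. In peribronchial-like cells 2 of 4 were higher, *Igf1* and *Igf1r*, against 2.72% and 2.31%. The summed level of the markers of that class went from 19451 to 7045 CPM, so the class differs in make-up or state between the libraries. Vascular smooth muscle-like cells had *Igf1* and *Igf2* among 6 measured members (background 1.94% higher and 1.18% lower), mesothelial-like cells *Igf2* and *Igf1r* among 6 (2.16% and 1.38%), and pericyte-like cells *Igf1* among 7 (1.89% and 0.672%). No member passed 2-fold in adventitial fibroblast-like cells, where 2.61% of genes were higher and 1.01% lower, or in alveolar fibroblast-like cells, where 1.97% were higher and 1.72% lower. In AT2-like cells *Igf1* and *Igf2* were past 2-fold among 7, against 1.74% of genes higher and 0.841% lower, but both were there at trace levels. No member was past 2-fold lower in any of these classes.

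**Figure D1:**
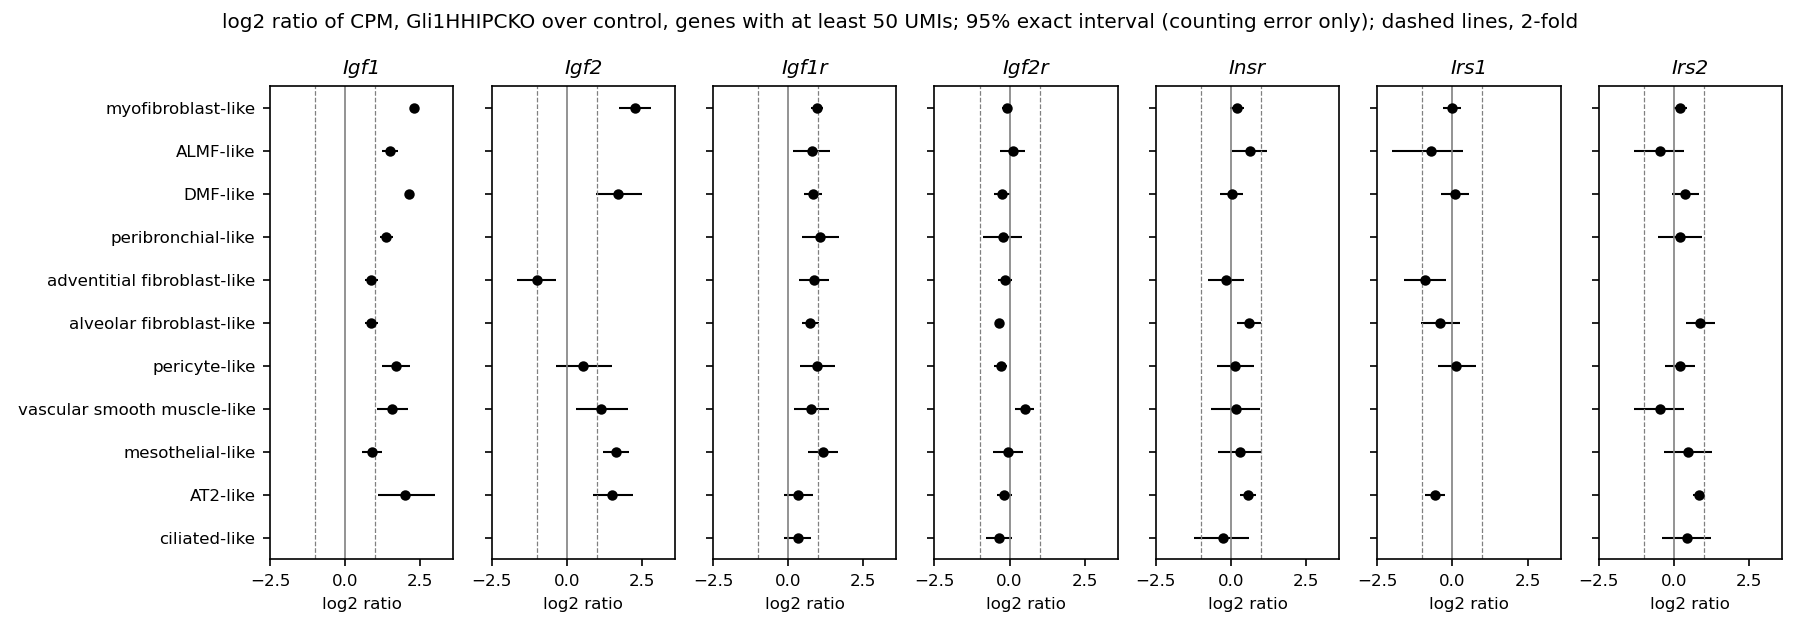
log2 ratio of CPM, *Gli1 HHIPCKO* over control, for each of the 7 genes (panels) in each class (rows), where at least 50 UMIs were counted over both libraries. Points are ratios of summed UMIs, bars are 95% exact intervals for counting error, and dashed lines mark 2-fold. *Igf1* and *Igf1r* lie right of 0 in every class drawn, and *Igf2r* lies on both sides of 0.

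*Igf1* (ENSMUSG00000020053; chromosome 10 of GRCm38, 87858265 to 87937042, plus strand) encodes the growth factor IGF1. In myofibroblast-like cells it rose from 1827 UMIs and 221 CPM (211 to 231) in control to 9393 UMIs and 1087 CPM (1065 to 1109) in *Gli1 HHIPCKO* (log2 ratio 2.30, interval 2.23 to 2.37). Of the 11157 genes measured in this class, 60 had a ratio at least this large, *Igf1* included. The cluster led by *Socs3* and *Egr1* is the one myofibroblast cluster with similar cell numbers from both libraries, and there *Igf1* rose from 241 to 1034 CPM (log2 ratio 2.10, interval 1.96 to 2.25). *Hhip* in the same cluster fell from 943 to 200 CPM. In the clusters dominated by 1 library, the ratio within the cluster rests on few cells of the other library. In the cluster of 19 control and 810 *Gli1 HHIPCKO* cells, *Igf1* was at 381 and 1019 CPM. In ALMF-like cells it was at 94.6 CPM (83.9 to 106) and 267 CPM (230 to 308), a ratio of 2.83. This value depends on where the class ends, and its log2 ran from 0.95 with clustering at resolution 2 to 2.25 with each library clustered on its own. Over all myofibroblast-like cells the log2 ratio ran from 2.24 to 2.32 in the 11 alternatives that gave a value.

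The rise of *Igf1* was seen in the number of cells with the transcript and in the number of UMIs in each. Among myofibroblast-like cells, 37.5% (35.6 to 39.3) had a UMI in control and 82.4% (80.9 to 83.9) in *Gli1 HHIPCKO*, at median depths of 2856.5 and 3103 UMIs. When all cells were thinned to 2000 UMIs, 466 and 362 shallower cells dropped out and the shares became 30.9% and 77.5%. The median cell held 0 *Igf1* UMIs in control and 3 in *Gli1 HHIPCKO*, and the highest count in a cell was 10 and 31. At least 5 UMIs were found in 1.49% and 30.0% of the cells. The 10% of cells with most *Igf1* held 49.9% of its UMIs in control and 31.7% in *Gli1 HHIPCKO*, a share that falls as the mean count rises (0.662 and 3.54 UMIs per cell) and so does not measure spread on its own.

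Red cell-like cells should lack *Igf1*, and their values are given beside those of other classes. The class includes a cluster of 3 control and 28 *Gli1 HHIPCKO* cells that was split from mesenchymal clusters, with pericyte as its second marker score, at 0.28. Red cell-like cells had a median of 369 genes in control and 1107 in *Gli1 HHIPCKO*. The class may thus hold stromal transcripts unevenly between libraries, and its values are no clean measure of free RNA. A UMI of *Igf1* was found in 7.31% (4.23 to 11.6) of 219 control and 28.2% (22.4 to 34.5) of 227 *Gli1 HHIPCKO* red cell-like cells, at medians of 4998 and 5072 UMIs. Thinned to the same depth, these shares were 5.29% and 16.7%. The myofibroblast-like shares lay well above them in both libraries. The red cell-like cells also differed between libraries in what they held, since genes other than haemoglobin made up 37.0% of their UMIs in control and 51.1% in *Gli1 HHIPCKO*, and their part in any ratio was not tested. Over the UMIs that are not haemoglobin, *Igf1* in red cell-like cells was at 80.9 and 235.5 CPM, near its level in ALMF-like cells, and *Irs2* was at 36.0 and 42.5 CPM, near its level in myofibroblast-like cells. By CPM on this scale, levels of that size are not set apart from those of a class that should lack the gene. The thinned shares differed for *Igf1*, which was found in 15.3% (13.0 to 17.9) of control and 33.0% (26.4 to 40.1) of *Gli1 HHIPCKO* ALMF-like cells. Both lay above the 5.29% and 16.7% of red cell-like cells. In AT2-like cells *Igf1* was found in 0.555% and 2.48% of cells, far below the red cell-like share at a similar or greater depth, with 12 and 69 UMIs in all. The source of the *Igf1* UMIs in red cell-like cells was not tested. The few UMIs in AT2-like cells are not read as expression there.

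The order of classes for *Igf1* changed between the libraries. In control it was highest in peribronchial-like cells at 382 CPM (336 to 433) and in DMF-like cells at 319 CPM (300 to 339), whose intervals overlap, and adventitial fibroblast-like cells were at 202 CPM. In *Gli1 HHIPCKO* DMF-like cells were highest at 1378 CPM (1336 to 1421), above peribronchial-like cells at 987 CPM (920 to 1057), while adventitial fibroblast-like cells were at 367 CPM. Alveolar fibroblast-like and mesothelial-like cells were at 126 and 105 CPM in control and at 229 and 196 CPM in *Gli1 HHIPCKO*, with log2 ratios of 0.87 and 0.90. Pericyte-like cells rose from 43.4 to 140 CPM and vascular smooth muscle-like cells from 57.6 to 169 CPM, log2 ratios of 1.69 (1.23 to 2.17) and 1.55 (1.05 to 2.08). In both of these classes the *Gli1 HHIPCKO* share of cells with a UMI, 12.7% and 13.8%, was below that of red cell-like cells, which were deeper. With thinning, 7.62% and 16.6% of pericyte-like cells had a UMI, near the red cell-like values, and the part of free RNA in these counts was not tested. Myofibroblast-like cells gave 48.5% of all *Igf1* UMIs in control and 60.1% in *Gli1 HHIPCKO*, while they held 19.2% and 16.7% of the UMIs of all genes.

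*Igf2* (ENSMUSG00000048583; chromosome 7, 142650766 to 142666816, minus strand) encodes the imprinted, mainly fetal growth factor IGF2. It was sparse in most classes, and among the 8 mesenchymal classes its highest level was in mesothelial-like cells, the lining of the pleura. Outside them, lymphatic endothelial-like cells, too few to be compared, held 28 of their 73566 UMIs in control and 7 of 18625 in *Gli1 HHIPCKO*, a higher level than in mesothelial-like cells. In mesothelial-like cells it rose from 65 UMIs and 58.5 CPM (45.2 to 74.6) to 180 UMIs and 182 CPM (156 to 210) (log2 ratio 1.64, interval 1.22 to 2.07). The share of mesothelial-like cells with a UMI went from 16.3% to 30.6%, or from 10.7% to 24.6% after thinning without 70 and 119 shallow cells. In *Gli1 HHIPCKO* the highest count in a mesothelial-like cell was 17, against 3 in control. Red cell-like cells had *Igf2* in 1.37% (0.283 to 3.95) and 3.96% (1.83 to 7.39) of cells.

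In myofibroblast-like cells *Igf2* rose from 38 UMIs and 4.60 CPM (3.25 to 6.31) to 191 UMIs and 22.1 CPM (19.1 to 25.5) (log2 ratio 2.27, interval 1.76 to 2.81). The ratio was close to that of *Igf1* at a far lower level. A UMI was found in 1.34% and 6.07% (5.19 to 7.05) of the cells, and the second interval overlaps that of red cell-like cells. Alveolar fibroblast-like cells, of similar depth to myofibroblast-like cells, had *Igf2* in 1.38% (0.886 to 2.05) of *Gli1 HHIPCKO* cells, so the share was not alike in all classes. DMF-like cells rose from 6.27 to 20.7 CPM (log2 ratio 1.72, interval 0.99 to 2.51). In ALMF-like cells the counts were 9 and 17 UMIs, under the minimum of 50. Vascular smooth muscle-like cells rose from 22.8 to 50.6 CPM (log2 ratio 1.15, interval 0.31 to 2.06).

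Adventitial fibroblast-like cells went the other way for *Igf2*. The level was 42.1 CPM (31.8 to 54.7) in control and 21.1 CPM (14.6 to 29.5) in *Gli1 HHIPCKO* (log2 ratio −0.99, interval −1.65 to −0.35). The ratio missed 2-fold narrowly and lay between −1.21 and −0.38 over the 11 alternatives, with 4 of them past 2-fold. Among the 8 mesenchymal classes, adventitial fibroblast-like cells were thus second to mesothelial-like cells in control, and below vascular smooth muscle-like cells in *Gli1 HHIPCKO*. In AT2-like cells *Igf2* was found in 1.20% and 4.06% of cells, close to the shares in red cell-like cells, and is not read as expression there.

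**Figure D2:**
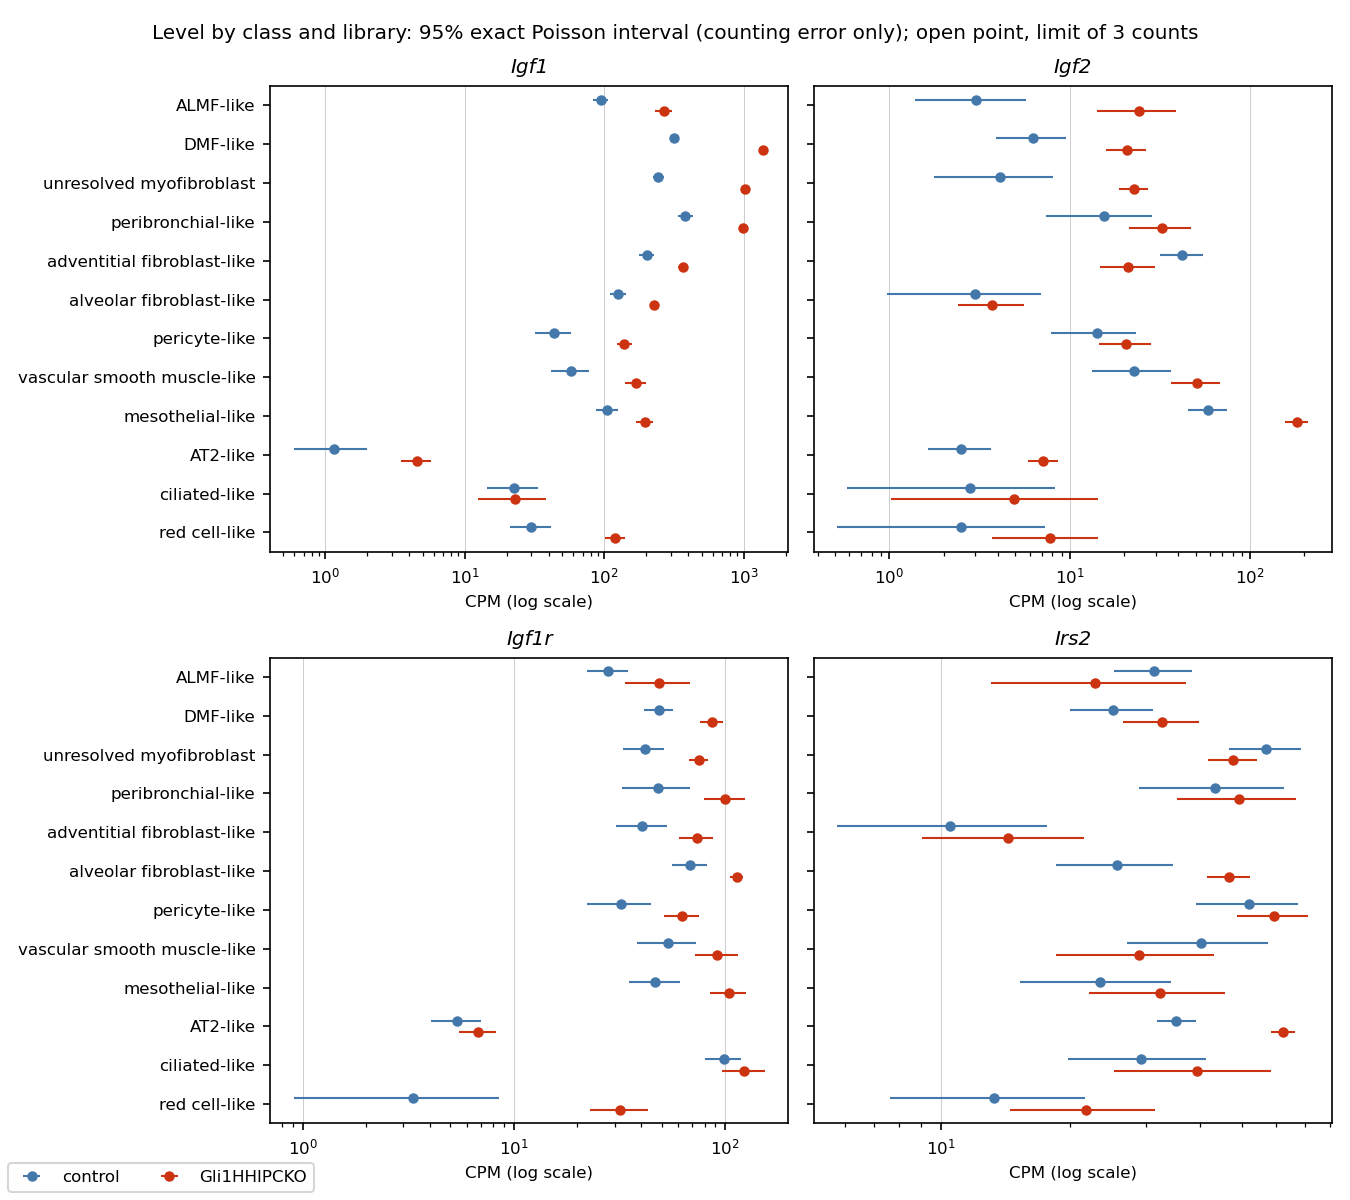
Level of *Igf1*, *Igf2*, *Igf1r* and *Irs2* as CPM on a log axis (horizontal) by class (vertical) in the control (blue) and *Gli1 HHIPCKO* (red) libraries. Points are summed UMIs and bars 95% exact Poisson intervals for counting error. *Igf1* reaches 1378 CPM in *Gli1 HHIPCKO* DMF-like cells, *Igf2* 182 CPM in mesothelial-like cells, and *Irs2* differs most clearly in AT2-like cells and alveolar fibroblast-like cells.

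*Igf1r* (ENSMUSG00000005533; chromosome 7, 67952827 to 68233668, plus strand) encodes the receptor for both ligands. In myofibroblast-like cells it was at 39.5 CPM (35.4 to 44.1) in control and 76.8 CPM (71.1 to 82.9) in *Gli1 HHIPCKO* (log2 ratio 0.96, interval 0.77 to 1.15), just under 2-fold, and it passed 2-fold at 1.08 when every cell was thinned. A UMI was found in 10.9% and 21.2% of the cells, and in 6.98% and 14.0% after thinning. Red cell-like cells had it in 1.83% and 13.7% of cells, and in 0.962% and 5.26% after thinning. Over the UMIs that are not haemoglobin, *Igf1r* was there at 8.99 and 62.3 CPM. The second value is near the *Gli1 HHIPCKO* level of pericyte-like cells, 62.5 CPM, and above that of ALMF-like cells, 48.6 CPM. The receptor was past 2-fold in peribronchial-like cells, which rose from 48.0 to 99.9 CPM (log2 ratio 1.06, interval 0.45 to 1.70), and in mesothelial-like cells, which rose from 46.8 to 104 CPM (log2 ratio 1.15, interval 0.66 to 1.66).

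The ratios of *Igf1r* were of similar size across the mesenchyme. In the 8 mesenchymal classes they ran from 0.74 in alveolar fibroblast-like cells, at 68.0 and 114 CPM, to the 1.15 of mesothelial-like cells. Each interval lay above 0. Red cell-like cells, with 4 and 41 UMIs and so under the minimum, went from 3.33 to 31.9 CPM (log2 ratio 3.26, interval 1.79 to 5.20). The part of free RNA in the ratios of *Igf1r* was not tested. In the epithelium *Igf1r* was at 5.37 and 6.75 CPM in AT2-like cells and at 98.6 and 123 CPM in ciliated-like cells. Those log2 ratios were 0.33 (−0.15 to 0.83) and 0.32 (−0.13 to 0.76), with intervals that include 0. Ciliated-like cells had the highest control level of the receptor, and 30.8% and 43.4% of them had a UMI. The difference between mesenchyme and epithelium was not tested.

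A further comparison was chosen after these values had been seen. Of 4301 genes measured in all 8 mesenchymal classes, 0.395% were at least 1.5-fold higher in each of them and 0.0698% at least 1.5-fold lower in each. The 17 higher genes included *Igf1* and *Igf1r*, which are 2 of the 3 members measured in all 8. Others included *Xist*, the linker histone genes *Hist1h1c* and *Hist1h1e*, and *Glul*, *Txnip*, *Per3*, *Klf15*, *Ddit4*, *Cirbp*, *Nfkbia*, *Srsf5* and *Entpd1*. *Igf1* ran from 0.86 in adventitial fibroblast-like to 2.11 in DMF-like cells. The set thus includes a gene that marks the sex of the mouse and genes known to vary with time of day, glucocorticoids or stress, and the part of such differences between the mice was not tested.

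*Insr* (ENSMUSG00000005534; chromosome 8, 3122061 to 3279617, minus strand) encodes the insulin receptor. Its level was even over the mesenchyme, between 23.2 and 36.4 CPM in the 8 classes of the control library. Over the UMIs that are not haemoglobin, red cell-like cells held 27.0 and 25.8 CPM. By CPM on that scale, levels of this size are therefore not set apart from those of red cell-like cells. In myofibroblast-like cells *Insr* was at 33.9 and 39.0 CPM (log2 ratio 0.20, interval −0.03 to 0.44), a difference not detectable at this depth. Alveolar fibroblast-like cells had 36.4 CPM (27.8 to 46.8) in control and 54.7 CPM (49.1 to 60.7) in *Gli1 HHIPCKO* (log2 ratio 0.59, interval 0.19 to 1.00). AT2-like cells had 18.4 CPM (15.9 to 21.2) and 27.2 CPM (24.7 to 30.0) (log2 ratio 0.56, interval 0.31 to 0.82). In ALMF-like cells 33.3 and 51.5 CPM gave the largest ratio of the mesenchymal classes in which it was measured (log2 ratio 0.63, interval 0.03 to 1.19). These intervals exclude 0 but the values stayed under 2-fold.

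*Igf2r* (ENSMUSG00000023830; chromosome 17, 12682406 to 12769664, minus strand) encodes the clearance receptor for IGF2, which also sorts lysosomal enzymes. In myofibroblast-like cells it showed little difference between libraries, with 81.0 CPM (75.0 to 87.4) in control and 76.7 CPM (71.0 to 82.8) in *Gli1 HHIPCKO* (log2 ratio −0.08, interval −0.24 to 0.08). Its level divided the classes instead. In control, pericyte-like cells at 272 CPM, alveolar fibroblast-like cells at 259 CPM, adventitial fibroblast-like cells at 229 CPM and vascular smooth muscle-like cells at 198 CPM formed a high group with neighbouring intervals that overlap. ALMF-like, DMF-like, mesothelial-like and peribronchial-like cells were lower, between 63.5 and 88.9 CPM, and AT2-like cells had 23.5 CPM. Ciliated-like cells lay between the groups at 143 CPM. Over the UMIs that are not haemoglobin, red cell-like cells held *Igf2r* at 53.9 and 86.6 CPM. These values are near those of the lower group, which is therefore not set apart from red cell-like cells by CPM on that scale. Among the 8 mesenchymal classes the ratio was lowest in alveolar fibroblast-like cells, at −0.34 (−0.50 to −0.18). It was highest in vascular smooth muscle-like cells, where 198 and 281 CPM gave 0.50 (0.20 to 0.81). Outside these classes, and over all UMIs, *Igf2r* was past 2-fold higher in red cell-like cells (log2 ratio 1.15, interval 0.44 to 1.90) and in lymphocyte-like cells (1.23, interval 0.54 to 1.93). Without haemoglobin, the 53.9 and 86.6 CPM of red cell-like cells stayed under 2-fold. *Igf2r* overlaps the antisense transcript *Airn*, which had 971 UMIs against 8106 for *Igf2r* over all cells, and these reads cannot be fully told apart unless strand was used in counting.

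*Irs1* (ENSMUSG00000055980; chromosome 1, 82233101 to 82291416, minus strand) encodes a docking protein of the insulin and IGF1 receptors. Myofibroblast-like cells had 190 and 197 UMIs, with CPM intervals of 19.8 to 26.5 in control and 19.7 to 26.2 in *Gli1 HHIPCKO* (log2 ratio −0.01, interval −0.31 to 0.28). No difference was detectable there. In adventitial fibroblast-like cells it was at 36.1 CPM (26.6 to 47.8) in control and 19.3 CPM (13.1 to 27.4) in *Gli1 HHIPCKO* (log2 ratio −0.90, interval −1.61 to −0.22), which passed 2-fold in 4 of 11 alternatives. In AT2-like cells it was at 16.1 and 10.8 CPM (log2 ratio −0.58, interval −0.90 to −0.26). *Irs1* was under the minimum in peribronchial-like cells, with 11 and 32 UMIs, in vascular smooth muscle-like cells, with 15 and 7, and in mesothelial-like cells, with 14 and 17. It was found in 3.65% and 4.41% of red cell-like cells, not far below the 6.64% and 7.02% of myofibroblast-like cells.

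*Irs2* (ENSMUSG00000038894; chromosome 8, 10984681 to 11008458, minus strand) encodes the second docking protein, whose gene is known to be repressed by insulin through FOXO1 in liver. In AT2-like cells, the surfactant-making cells of the alveolus, it was at 368 UMIs and 35.3 CPM (31.8 to 39.1) in control and 951 UMIs and 62.3 CPM (58.4 to 66.4) in *Gli1 HHIPCKO* (log2 ratio 0.82, interval 0.65 to 1.00). A UMI was found in 14.8% and 29.3% of AT2-like cells at medians of 4735 and 5710 UMIs, and in 6.53% and 11.9% once thinned, with 79 and 42 shallower cells dropped. Red cell-like cells had it in 6.39% and 8.81% of cells, and in 1.92% and 2.87% after thinning. Over the UMIs that are not haemoglobin they held 36.0 and 42.5 CPM. By CPM on that scale, the control level of AT2-like cells is not set apart from that of red cell-like cells. By thinned share, 6.53% against 1.92%, it was higher in AT2-like cells. The part of free RNA was not tested. The ratios of *Irs1* and *Irs2* lay on opposite sides of 0 in AT2-like cells.

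The AT2-like clusters were not shared evenly by the libraries, and *Irs2* differed among them. A cluster led by *Retnla*, *Lcn2* and *Chil1*, genes of airway defence, held 98 control and 920 *Gli1 HHIPCKO* cells, with *Irs2* at 35.7 CPM (21 UMIs) and 72.9 CPM (465 UMIs), just past 2-fold (log2 ratio 1.03, interval 0.40 to 1.73). Another cluster led by *Lcn2* and *Lrg1* held 449 and 1277 cells, with 39.3 and 57.3 CPM (log2 ratio 0.55, interval 0.22 to 0.88). In a cluster led by *Bex2* and *Bex4*, with 758 and 233 cells, the levels were 36.0 and 35.4 CPM (log2 ratio −0.02, interval −0.63 to 0.55). In the fourth, led by *Chia1* and *Ager*, with 858 and 109 cells, they were 32.6 and 53.6 CPM (log2 ratio 0.72, interval 0.13 to 1.27). The control level was thus much the same in all 4 clusters, and the *Gli1 HHIPCKO* level was not.

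Among the mesenchymal classes in which it was measured, *Irs2* had its largest ratio in alveolar fibroblast-like cells. The level there was 25.7 CPM (18.6 to 34.6) in control and 46.8 CPM (41.6 to 52.4) in *Gli1 HHIPCKO* (log2 ratio 0.87, interval 0.40 to 1.36). Levels were higher in pericyte-like cells, at 51.9 and 59.3 CPM, and in peribronchial-like cells, at 43.3 and 49.3 CPM. Myofibroblast-like cells had 34.8 and 40.5 CPM (log2 ratio 0.22, interval −0.01 to 0.45). Adventitial fibroblast-like cells had the lowest level, 10.5 and 14.3 CPM, with 14 and 23 UMIs. AT2-like cells gave 25.8% of all *Irs2* UMIs in control and 37.4% in *Gli1 HHIPCKO*, while they held 24.2% and 29.5% of the UMIs of all genes.

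**Figure D3:**
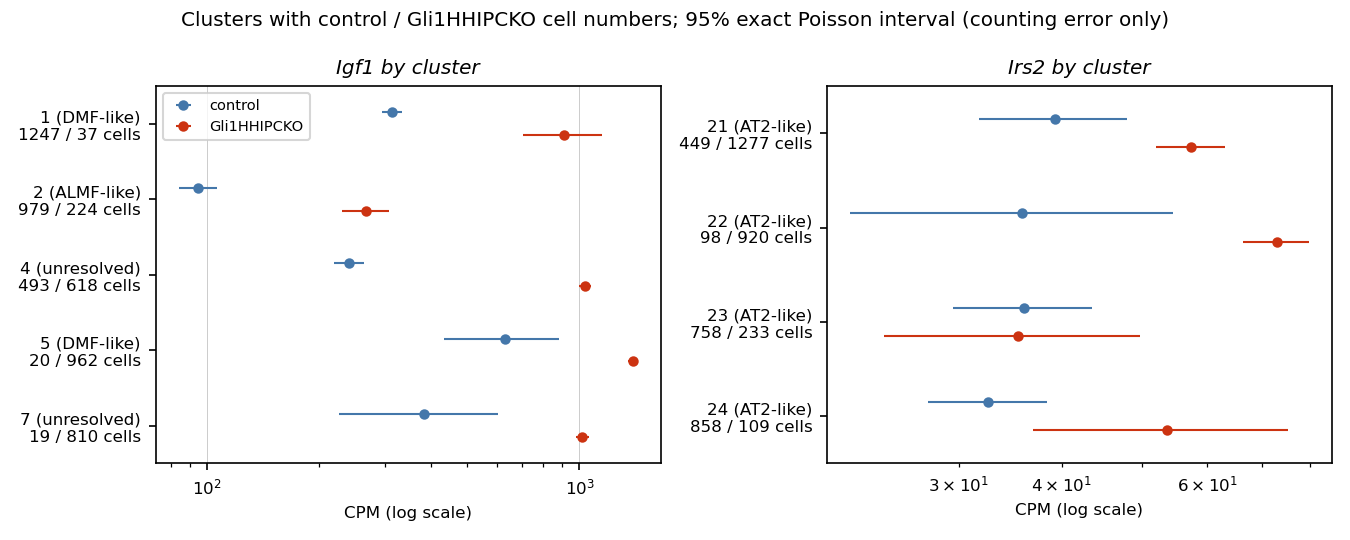
Level as CPM on a log axis (horizontal) of *Igf1* in 5 myofibroblast clusters and of *Irs2* in 4 AT2-like clusters (vertical, with control and *Gli1 HHIPCKO* cell numbers), control in blue and *Gli1 HHIPCKO* in red. Bars are 95% exact Poisson intervals for counting error. *Igf1* is higher in *Gli1 HHIPCKO* in each of the 5 clusters, including the cluster of 493 and 618 cells, and *Irs2* is level in the cluster of 758 and 233 cells.

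Ligand and receptor were also counted in the same cells. *Igf1* and *Igf1r* were found together in 135 of 2758 control myofibroblast-like cells (interval 4.12% to 5.77%) and in 504 of 2651 from *Gli1 HHIPCKO* (17.5% to 20.6%). After thinning the shares were 2.92% and 11.6%. In red cell-like cells the share was 0.913% and 5.73%. Among *Gli1 HHIPCKO* myofibroblast-like cells, *Igf1r* was found in 23.1% of those with *Igf1* and 12.7% of those without, but the former were deeper, with medians of 3219 and 2526 UMIs. Thinned, the shares were 14.9% and 10.7%. In the thinned control cells they were 9.45% and 5.87%. The order did not hold in every class after thinning: in *Gli1 HHIPCKO* DMF-like cells *Igf1r* was in 15.4% of cells with *Igf1* and 19.4% of those without, and in control alveolar fibroblast-like cells in 12.5% and 13.0%. In alveolar fibroblast-like cells the pair was found in 7.02% of the cells in control and 14.1% in *Gli1 HHIPCKO*, or 2.43% and 6.20% after thinning, and in AT2-like cells in 1 of 2163 and 0 of 2539.

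Other genes of the pathway were taken from lists made by hand. Of 12 genes for IGF-binding proteins and the proteases that release IGF from them, 9 were measured in DMF-like cells and 7 of these were lower, with a median log2 ratio of −1.13 against 0.00 for all genes, of which 2.38% were lower. *Igfbp3*, a carrier of IGF in serum, fell from 254 to 8.34 CPM, and *Stc1*, an inhibitor of the protease PAPPA, from 38.5 to 0.667 CPM. *Igfbp7* was the most abundant gene of this list and fell from 2204 to 1080 CPM (log2 ratio −1.03, interval −1.09 to −0.97). In ALMF-like cells *Igfbp7* was at 1407 and 1907 CPM, the opposite direction and under 2-fold, and 3 of 7 genes of the list were lower, among them *Igfbp5* at 199 and 54.3 CPM, with 0 higher. In myofibroblast-like cells 3 of 10 were lower and 1 higher. The shares of all genes lower in these classes were 2.55% and 1.94%. In AT2-like cells 0 of 4 passed 2-fold. Of 31 genes of the PI3K, AKT and MAPK arms, 26 were measured in ALMF-like, 27 in DMF-like and 29 in AT2-like cells, and 0 passed 2-fold in any of these. *Grb10*, an adaptor that restrains the receptors, was the most abundant gene of that list in DMF-like cells, at 630 and 422 CPM. Elsewhere 1 gene of that list was higher in each of peribronchial-like (of 20 measured), adventitial fibroblast-like (of 25) and pericyte-like cells (of 27). The shares of all genes higher in these 3 classes were 2.72%, 2.61% and 1.89%.

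Genes that FOXO factors, which AKT inhibits, are known to induce were mixed. In DMF-like cells 1 of 13 was higher, *Sesn3*, and 3 were lower, *Bcl6*, *Cited2* and *Bcl2l11*. Of all genes in that class 2.52% were higher and 2.38% lower, and lists this small are described only. In adventitial fibroblast-like cells 3 of 11 were higher and 0 lower (2.61% of all genes higher), and in mesothelial-like cells 2 of 7 and 0 (2.16%). Peribronchial-like cells had 2 of 8 higher and 1 lower, against 2.72% and 2.31% of all genes. Vascular smooth muscle-like cells also had 2 of 8 higher and 1 lower, against 1.94% and 1.18%. In ALMF-like cells *Klf15* was the 1 of 12 past 2-fold, at 82.5 and 199 CPM, against 1.71% of all genes higher. In AT2-like cells *Pdk4* was higher, from 1.53 to 6.69 CPM, and *Bcl6* lower, from 29.4 to 14.6 CPM, among 13 measured. Of all genes there, 1.74% were higher and 0.841% lower. In the growth hormone axis, which drives *Igf1* in liver, 0 of 6 measured genes passed 2-fold in DMF-like or AT2-like cells. The count was 0 of 5 in ALMF-like cells. For adventitial fibroblast-like cells 1 of 4 was higher, against 2.61% of all genes. *Ghr*, the growth hormone receptor, was at 528 and 661 CPM in DMF-like cells. Of 15 imprinted genes, the class to which *Igf2* belongs, 11 were measured in DMF-like cells and 4 were higher, against 2.52% of all genes. They were *Zim1* at 2.09 and 30.0 CPM, *Nnat* at 124 and 646 CPM, *Peg3* at 121 and 451 CPM, and *Meg3* at 22.1 and 59.7 CPM. In ALMF-like cells 0 of 9 were higher and 1 was lower, *Peg10* at 46.1 and 22.9 CPM, against 1.71% and 2.55% of all genes. In AT2-like cells *Meg3* was the 1 of 12 imprinted genes past 2-fold, at 64.0 and 175 CPM, against 1.74% of all genes higher. Of 11 genes for insulin, relaxin and their receptors, 0 reached the minimum in any class. Of 6 RNA-binding fetal growth genes, 2 were measured in AT2-like cells and 1 was higher, *Igf2bp3*, against 1.74% of all genes. It was at 1.73 and 3.67 CPM, a trace level like those of *Igf1* and *Igf2* there. The 1 gene of this list measured in mesothelial-like cells was also higher, with a log2 ratio of 1.29, against 2.16% of all genes.

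Each member was also compared with 10862 genes for its pattern over 28 points, 14 classes in each of the libraries, as Pearson's r of log2(CPM + 5). Points of a class share markers and points of a library share depth and free RNA, so these are descriptions. The genes most like *Igf1* were *Tgfbr3*, with r of 0.930, *Lpar1* and *Hmcn1*. For *Igf2* they were *Podn*, with r of 0.860, *Colec11* and *Sfrp1*, and for *Igf1r* they were *Eml1*, with r of 0.916, *Syne1* and *Ddb1*. *Igf2r* was most like *Rap2a*, *Arap1* and *Il6st*, and *Insr* most like *Ric1*, *Zfp445* and *Uso1*. The adaptors had lower best values, 0.775 for *Irs1* with *Hcfc2*, followed by *Cdr2l* and *Plod3*, and 0.702 for *Irs2* with *Nme3*, followed by *Plpp2* and *Uri1*. Among the members themselves, *Igf1r* had r of 0.636 with *Igf2r*, 0.635 with *Insr* and 0.608 with *Igf1*, and *Irs1* and *Irs2* had r of 0.169.

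The start regions of the members were read from RefSeq windows of 300 bases on GRCm38.p6, in a table of 32851 windows. It gave 9 windows for 6 of the 7 genes, with 4 for *Igf2*, while *Insr* has no window in the table. *Igf1* and *Igf1r*, which were both at least 1.5-fold higher in each of the 8 mesenchymal classes, a cut chosen after the values were seen, differ in base composition. The *Igf1* window (chr10:87860861-87861160, plus strand, inside the annotated gene) has 6 CpG dinucleotides, close to the median of 7 over all windows. The *Igf1r* window (chr7:67952007-67952306, plus strand, upstream of the annotated gene) has 48, a number reached by 1.22% of all windows. Both are shown with CpG in capitals.
Igf1: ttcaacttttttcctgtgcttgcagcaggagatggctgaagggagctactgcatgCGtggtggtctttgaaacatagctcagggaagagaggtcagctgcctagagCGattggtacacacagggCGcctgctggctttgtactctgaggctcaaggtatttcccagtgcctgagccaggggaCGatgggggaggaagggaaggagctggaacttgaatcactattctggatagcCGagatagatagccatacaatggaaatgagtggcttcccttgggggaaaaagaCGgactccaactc
Igf1r: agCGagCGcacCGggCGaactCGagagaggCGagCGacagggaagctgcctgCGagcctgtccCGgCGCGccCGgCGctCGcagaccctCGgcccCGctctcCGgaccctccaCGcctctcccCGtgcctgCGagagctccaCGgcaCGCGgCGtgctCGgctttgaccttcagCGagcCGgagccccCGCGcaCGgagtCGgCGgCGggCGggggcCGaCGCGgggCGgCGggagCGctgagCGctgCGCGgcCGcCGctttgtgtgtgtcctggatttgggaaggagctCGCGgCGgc
The windows of *Irs2*, *Igf2r* and *Irs1* hold 41, 34 and 28 CpG, and those of *Igf2* hold from 2 to 24. A set of 7 patterns was searched on both strands, a choice made with the results known. The GLI letters GACCACCCA and the shorter ACCACCCA contained in them, found in 0.253% and 1.48% of all windows, were in 0 of the 9 member windows. The same held for the forkhead letters GTAAACA (3.65%), the FOXO insulin response letters TTGTTTAC (1.23%), the STAT5 letters TTCNNNGAA (8.30%) and the C/EBP letters TTGCGCAA (0.183%). The CArG box, bound by serum response factor, is in 1.63% of all windows and in 1 member window, that of *Igf2* at chr7:142661222-142661521 on the minus strand, inside the annotated gene. It is shown here in capitals at bases 96 to 105.
Igf2: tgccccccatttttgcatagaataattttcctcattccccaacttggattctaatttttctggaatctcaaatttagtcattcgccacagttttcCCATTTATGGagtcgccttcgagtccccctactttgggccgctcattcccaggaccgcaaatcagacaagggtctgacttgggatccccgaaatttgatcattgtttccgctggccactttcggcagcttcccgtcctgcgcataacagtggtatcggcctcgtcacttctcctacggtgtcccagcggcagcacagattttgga
A match is a description of letters and not of binding, and no match says only that the letters are not in that window.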

How the data were processed

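The deposited files hold raw UMI counts per gene and cell that the authors made with Cell Ranger against mm10; the file header names version 6.1.0 and the labels name version 3.1.0. The labels describe a 3′ kit and the methods of the study a 5′ kit, which the files do not settle. From the deposited counts, CPM and the ratio of CPM were computed here over the summed UMIs of each class. A cell was kept if it had 200 to 6000 genes and no more than 10% of its UMIs were mitochondrial, which left out 82 control and 235 *Gli1 HHIPCKO* cells. Both libraries were clustered together with no integration step, and 30 components of 2000 variable genes gave a graph of 20 neighbours that was cut by Leiden at resolution 1. The members, sex-linked genes and genes of the study were held out of clustering. Clusters were named from marker lists by mean score, and the thresholds of the naming rule were set and revised after the clusters were seen. Scrublet scores ranked 8.73% of control and 9.69% of *Gli1 HHIPCKO* cells as doublets, and these were kept in the main values.

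The members and lists were chosen with earlier results of these data known. Genes named from a list are those past 2-fold with at least 50 UMIs in ALMF-like, DMF-like or AT2-like cells, at most 4 per list and class, and the most abundant gene of the list. Other genes named are the 3 most like each member, *Hhip* and *Xist*, genes leading a cluster, and the genes at least 1.5-fold higher in all 8 mesenchymal classes, a set chosen after its values were seen. Of 32285 gene IDs, 32235 were found in the GENCODE vM21 annotation. The ratio step was tested on simulated counts with Poisson error, and clustering, naming, doublet ranking and thinning were not. The software was scanpy 1.11.5, leidenalg 0.10.2, igraph 0.11.9, scikit-learn 1.9.0, matplotlib 3.10.9, pandas 2.3.3, scipy 1.17.1 and numpy 2.4.6 under Python 3.11.15. Alternatives covered the cell filter, doublets, scaling, centring, totals, resolution, separate clustering, genes held out, class boundaries, the UMI minimum, the fold and thinning.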

Additional observations from a re-analysis of the deposited data

How the results depend on the processing

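The counts of members past 2-fold were recomputed under 196 alternatives. A count is taken as moved if the larger of it and the main count is over 1.5 times the smaller, or if only 1 of them is 0; by this rule 170 stayed and 26 moved. Of those that stayed, 4 still differ: the 2 higher became 3 at 1.5-fold in DMF-like, AT2-like and myofibroblast-like cells, and 3 with every cell thinned in myofibroblast-like cells, where *Igf1r* passed 2-fold. In ALMF-like cells the 1 higher member became 0 at resolution 2, 3 with each library clustered on its own, 2 with no gene held out of clustering, 2 with a minimum of 20 UMIs and 3 at 1.5-fold, and the 0 lower became 1 at resolution 2, with immediate early genes held out and at 1.5-fold. In DMF-like cells the 2 higher became 1 with a minimum of 200 UMIs and with every cell thinned, since *Igf2* fell under the minimum. Its ratio was past 2-fold in 11 of 11 alternatives, with a lowest log2 of 1.52. In peribronchial-like cells the 2 higher became 1 with each library clustered on its own, 1 with a minimum of 200 UMIs and 4 with a minimum of 20 UMIs. In adventitial fibroblast-like cells the 0 lower became 1 with the stricter cell filter, without doublets, as a mean over cells, centred on the median, at resolution 2, with separate clustering and when thinned, and 2 at 1.5-fold, and the 0 higher became 1 at resolution 2 and 2 at 1.5-fold. In alveolar fibroblast-like cells the 0 higher became 4 at 1.5-fold. In AT2-like cells the 2 higher became 0 with a minimum of 200 UMIs and when thinned, since both fell under the minimum, while their log2 ratios when thinned were 2.38 for *Igf1* and 1.63 for *Igf2*. Of 126 CPM values recomputed with thinned cells or with ALMF-like and DMF-like cells pooled, 20 moved outside the interval of the main value, as did 10 of 473 log2 ratios. Mesothelial-like, pericyte-like, vascular smooth muscle-like and ciliated-like cells were not rerun. In the other classes no ratio past 2-fold changed sign, but ratios near 0 did: *Irs1* in myofibroblast-like cells kept its sign in 4 of 11 alternatives, *Insr* in adventitial fibroblast-like cells in 8 of 11, and *Insr* and *Irs1* in DMF-like and *Igf2r* in adventitial fibroblast-like cells in 10 of 11.

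The limits are those of 1 mouse per group. Variation between mice, sex, litter and capture cannot be told apart from the deletion, and no interval here covers them. The sort set the balance of stroma and epithelium, and cell numbers were not compared. ALMF-like and DMF-like clusters each hold mostly 1 library, so their ratios depend on where a class ends. Free RNA was neither measured on its own nor removed. Genes with few UMIs, such as *Irs1* in small classes, were not measurable at this depth.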
